A study of Mus musculus with 10 samples.

Results

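Growth factors that signal through receptor tyrosine kinases, and the receptors themselves, were compared between distal tip cells of the mouse lung at E11.5 and at E17.5. The members were chosen by symbol: all numbered *Fgf* genes, the receptors *Fgfr1*, *Fgfr3* and *Fgfr4*, the PDGF, VEGF, EGF and neuregulin ligands and their receptors, HGF with *Met*, Kit ligand with *Kit*, and *Igf1* with *Igf1r* and *Insr*. The rule gave 56 of the 17813 genes that a probe set of their own represents in the deposited table, namely 35 genes for secreted ligands, 17 for receptors and 4 for intracellular FGF homologous factors. *Areg*, the gene for amphiregulin, was not analysed here.

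RNA was measured on Affymetrix mouse microarrays, with 5 arrays for each stage. Embryos at both stages are labelled with the genotype *Id2-CreER; Rosa26R-fGFP*, in which Cre recombinase fused to an oestrogen receptor is made where *Id2* is active, as in the lung tips, and switches on a heritable membrane GFP once tamoxifen is given. Tips of E11.5 lungs were cut out manually after a short dispase treatment, and no tamoxifen is stated for them. The E17.5 cells came from embryos whose mothers received tamoxifen at E16.5, and were sorted as GFP+ cells by flow cytometry together with a few of their immediate progeny. The stages thus also differ in how the cells were isolated, and these differences cannot be told apart. The labels call the arrays biological replicates without saying whether they come from separate litters, so the p-values measure the spread between these arrays.

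Receptor tyrosine kinases are membrane proteins that pair up when a growth factor binds, phosphorylate each other and recruit adaptors that switch on the RAS-ERK, PI3K-AKT and phospholipase C pathways. In the developing lung they carry much of the exchange between tissue layers. FGFs made by the mesenchyme drive the outgrowth of the epithelial tips, the epithelium makes FGF9 that acts on the mesenchyme, VEGFA from the epithelium acts on the capillary bed, and PDGFA from the epithelium acts on myofibroblast precursors. EGF family ligands are made as membrane-bound precursors that proteases release, and they act on the epithelium itself.

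The values are log2 signals per probe set, each gene is represented by its brightest probe set, and 1 unit of difference is a doubling. All differences below are E17.5 minus E11.5 from limma, an SE follows the difference, and a gene was called where its Benjamini-Hochberg adjusted p over all genes was under 0.05. Levels of different genes are not compared, because probe sets differ in brightness. Pearson correlations across genes were 0.988 to 0.996 among the E11.5 arrays, 0.984 to 0.993 among the E17.5 arrays and 0.819 to 0.847 between stages.

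The labelled cell type was checked against marker lists. The 18 epithelial markers gave a mean of 11.71 to 11.96 per array at the earlier stage and of 12.30 to 12.56 at the later, with 9 higher, 5 lower and 4 not called, or 6 higher and 6 lower after quantile normalization. Of 7 tip markers, *Id2*, *Mycn* and *Bmp4* were higher and *Etv4* and *Etv5* lower, whereas after quantile normalization *Bmp4* was lower at -0.28. *Sox9* differed by -0.02 (adjusted p = 0.92), or by -0.59 (adjusted p = 0.0041) after quantile normalization. Of 8 alveolar type 2 markers, 7 were higher and *Lpcat1* was lower, and all 7 alveolar type 1 markers were higher. Markers of other cell types were measured too and moved with stage. Endothelial genes were higher for 16 of 19 and lower for 0, with array means of 5.40 to 6.37 before and 8.59 to 10.47 after. The macrophage list had 19 of 22 genes higher and 1, *Cx3cr1*, lower, with array means of 5.63 to 6.41 and 8.61 to 9.45. The mast cell list had 8 of 10 higher and 1, *Ms4a2*, lower, with array means of 4.87 to 5.16 and 6.98 to 7.79. Smooth muscle and pericyte genes were split into 5 higher and 5 lower of 11, mesothelial genes into 2 and 2 of 6, and erythroid genes into 1 and 4 of 7. All 16 immediate early genes were higher, with array means of 7.59 to 7.80 and 12.11 to 12.39. In bulk samples, fewer cells of a type and less RNA per cell cannot be told apart.

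Of the 56 members, 23 were called higher (41.1%) and 16 lower (28.6%), while 17 did not pass. Over all 17813 genes tested, 36.9% were called higher and 31.5% lower, so the shares of the members were near the background. The largest differences lay among the higher members. At least 2-fold higher were 18 of the 56 members, against 4307 of all 17813 genes (24.2%). At least 2-fold lower were 9 of the 56, against 2902 of all genes (16.3%), a share near the background. In 21 of the 56 members all E17.5 arrays stood above all E11.5 arrays, and in 13 of the 56 they stood below. That held for 32.3% and 26.3% of all genes. The median difference was 0.01 over the members and 0.03 over all genes. Receptors were higher in 8 of 17 and lower in 4, with a median difference of 0.40, and secreted ligands were higher in 15 of 35 and lower in 10, with a median of -0.02. Centring each array on its median moved the median difference of all genes to -0.10, and quantile normalization moved it to -0.04. Of the called members, *Erbb2* was the only one to change direction under these scalings.

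**Figure D1:**
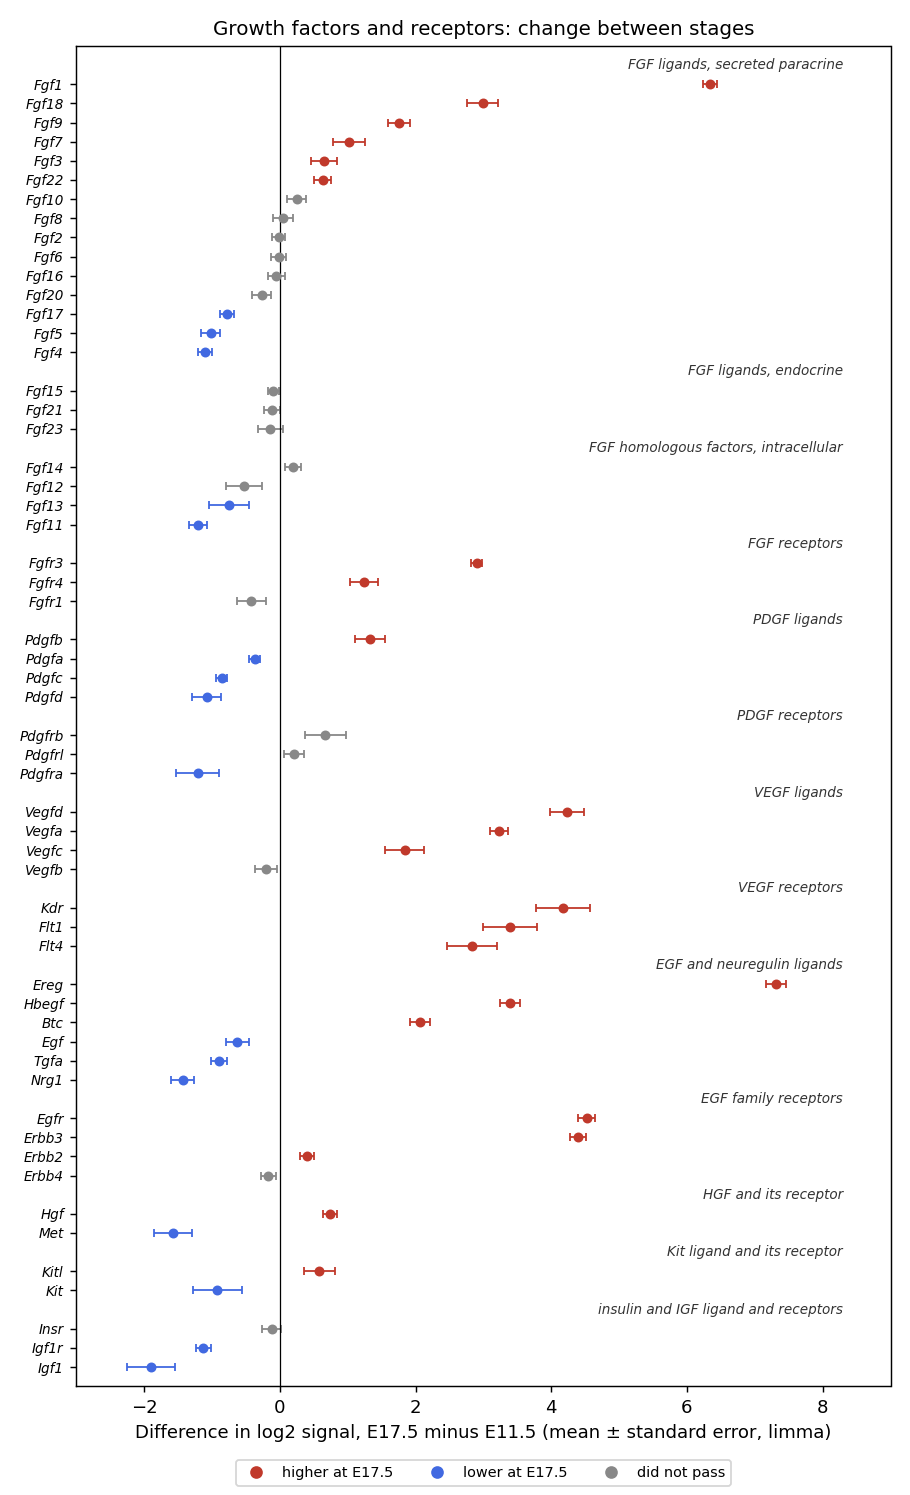
Difference in log2 signal between stages (E17.5 minus E11.5, horizontal axis) for each of the 56 members, grouped by role, with points for the limma estimate and bars for its standard error. *Ereg* at 7.31 and *Fgf1* at 6.34 lie furthest to the right, all 3 VEGF receptors lie above 2, and no member falls below *Igf1* at -1.90.

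EGF family ligands moved in opposite directions. *Ereg*, *Hbegf* and *Btc* rose from E11.5 to E17.5, and *Nrg1*, *Tgfa* and *Egf* fell. Epiregulin, encoded by *Ereg*, binds the EGF receptor and ERBB4. *Ereg* gave signals of 4.06, 3.96, 4.06, 3.96 and 4.05 on E11.5 replicates 1 to 5, all below the lower quartile of all signals at 4.62. On E17.5 replicates 1 to 5 it gave 11.86, 10.97, 11.10, 11.48 and 11.22. The difference of 7.31 (SE 0.15, 158-fold, adjusted p = 1.6e-12) was the largest among the members, and the groups stood far apart. As the E11.5 signals lie at the low end of the scale, the exact fold is uncertain. *Hbegf* encodes a heparin-binding ligand of the same receptors. Its signals were 7.64, 8.24, 8.02, 8.08 and 8.34 at E11.5 and 11.88, 11.34, 11.36, 11.28 and 11.39 at E17.5. It was 10.5-fold higher (3.39, SE 0.15, adjusted p = 9.7e-10), with replicate 1 the lowest E11.5 array and the highest E17.5 array. *Btc*, the betacellulin gene, went from 4.79, 4.37, 4.47, 4.32 and 4.29 to 6.99, 6.53, 6.53, 6.27 and 6.25, which is 4.19-fold higher (adjusted p = 9.1e-08). The mean of the immediate early genes given above was likewise higher on every E17.5 array, and their part in these rises was not tested.

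*Nrg1* encodes neuregulin 1, a ligand of ERBB3 and ERBB4. It read 5.69, 5.34, 5.53, 5.80 and 5.96 at E11.5 and 4.79, 4.10, 3.82, 4.20 and 4.28 at E17.5. It was 2.69-fold lower (-1.43, SE 0.17, adjusted p = 1.1e-05), and the highest E17.5 array stayed below the lowest E11.5 array. *Tgfa*, which encodes another ligand of the EGF receptor, had means of 5.73 ± 0.18 and 4.83 ± 0.19 (SD, n = 5 at each stage) and a difference of -0.90 (adjusted p = 2.1e-05). *Egf* itself had means of 7.18 ± 0.29 and 6.54 ± 0.28 and a difference of -0.63 (adjusted p = 0.0046).

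Of the EGF receptor family, *Egfr* and *Erbb3* were much higher at E17.5. *Egfr* encodes the receptor of the EGF-type ligands. It read 6.39, 6.28, 6.33, 6.41 and 6.37 at E11.5 and 11.26, 10.94, 10.48, 10.77 and 10.91 at E17.5. The 22.9-fold difference (4.52, SE 0.13, adjusted p = 1.7e-11) was many times the SD of either stage, 0.05 and 0.28. *Erbb3* encodes a neuregulin receptor with little kinase activity of its own. Its signals went from 8.37, 8.51, 8.45, 8.74 and 8.92 to 13.18, 13.02, 12.86, 12.88 and 13.01, a 21-fold difference (4.39, SE 0.12, adjusted p = 1.3e-11). *Erbb2* encodes the partner that binds no ligand and pairs with the other members of the family. It read 9.90, 10.03, 10.11, 9.96 and 9.92 at E11.5 and 10.40, 10.13, 10.16, 10.64 and 10.59 at E17.5. Its difference of 0.40 (adjusted p = 0.0077) depended on the scaling, with 0.27 (adjusted p = 0.068) after median centring and -0.21 (adjusted p = 0.1) after quantile normalization. *Erbb4* stayed below the lower quartile at both stages, with means of 3.79 and 3.62, and did not pass (adjusted p = 0.18).

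**Figure D2:**
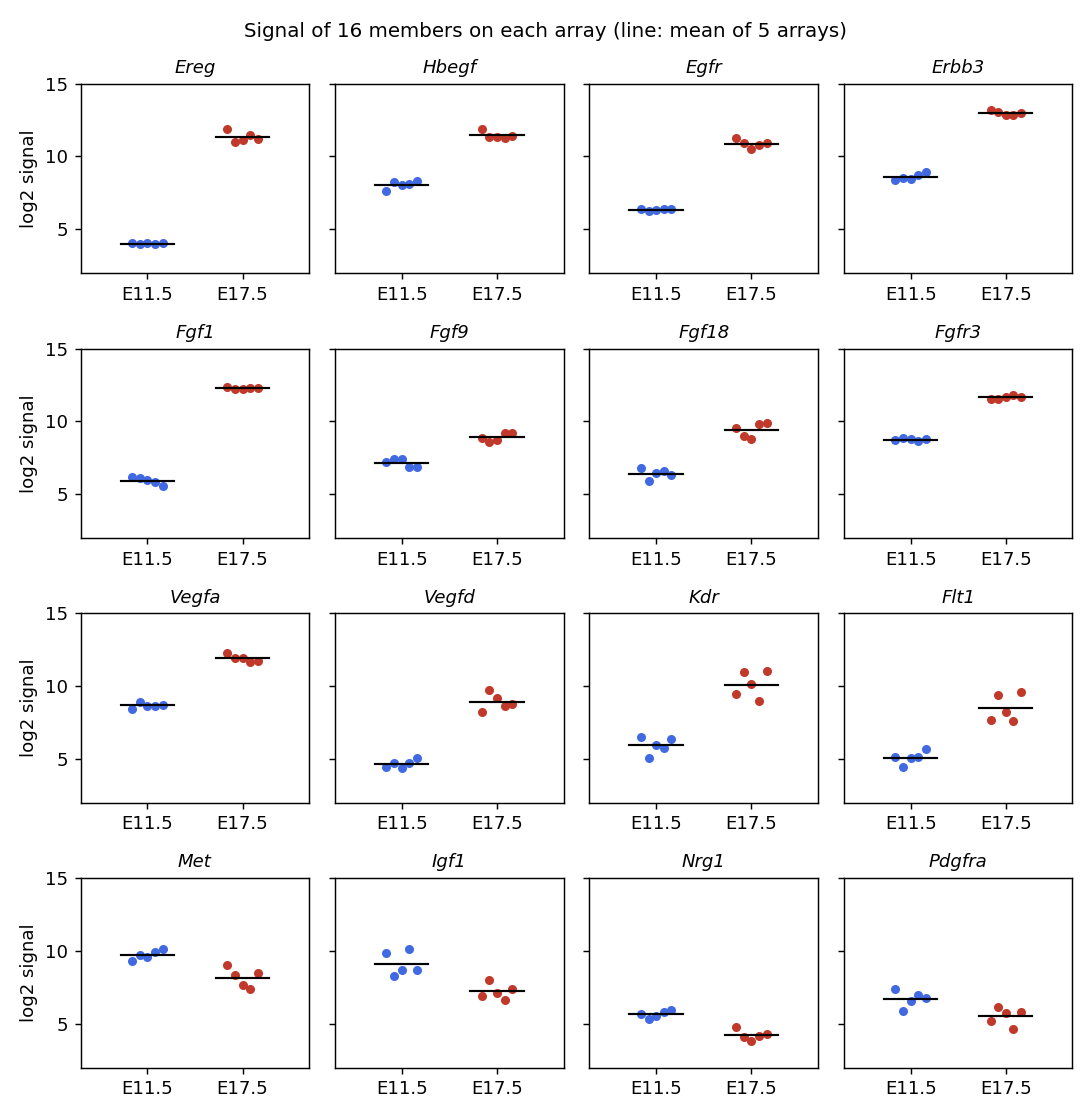
log2 signal of 16 members on each array, with E11.5 in blue, E17.5 in red and a line at the mean of 5 arrays. The panels were picked by hand and do not stand for all members. The stages do not overlap in 15 of the panels, and in *Pdgfra* the E17.5 array at 6.17 lies above the E11.5 array at 5.87. Among all 56 members the E17.5 arrays stood wholly above in 21 and wholly below in 13, against 32.3% and 26.3% of all genes.

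Among the 15 secreted FGFs that act locally, 6 were higher (40%), 3 lower (20%) and 6 did not pass. Over all genes 36.9% were higher and 31.5% lower. *Fgf1* and *Fgf18* rose the most. *Fgf1*, the gene for acidic FGF, which can bind all FGF receptors, read 6.19, 6.08, 6.00, 5.81 and 5.58 at E11.5. At E17.5 it read 12.33, 12.23, 12.23, 12.29 and 12.28. The 5 later arrays differed by an SD of only 0.04 and stood 80.9-fold above the earlier ones (6.34, SE 0.11, adjusted p = 6.9e-13). *Fgf18* belongs to the same subfamily as *Fgf8* and *Fgf17*. It went from 6.80, 5.91, 6.44, 6.57 and 6.32 to 9.51, 8.97, 8.82, 9.79 and 9.88, a 7.92-fold difference (2.99, SE 0.23, adjusted p = 1.5e-07). *Fgf9* read 7.20, 7.40, 7.45, 6.88 and 6.88 at E11.5 and 8.89, 8.58, 8.72, 9.22 and 9.19 at E17.5, and was 3.39-fold higher (adjusted p = 8.7e-07).

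*Fgf7* and *Fgf10* encode ligands that mesenchyme makes and the epithelium receives. *Fgf10* read 4.51, 4.35, 4.70, 4.30 and 4.24 at E11.5 and 4.36, 5.13, 4.63, 4.53 and 4.67 at E17.5. The stages overlapped, with values around the lower quartile of all signals, and it did not pass (0.25, adjusted p = 0.15). *Fgf7* had means of 4.01 ± 0.25, below that quartile, and 5.03 ± 0.55. It was 1.02 higher (adjusted p = 0.002), with all E17.5 arrays above the E11.5 arrays. *Fgf22* was higher by 0.63 (adjusted p = 0.00078) and *Fgf3* by 0.65 (adjusted p = 0.0079), the latter with overlapping arrays.

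The secreted FGF genes that fell were *Fgf4*, *Fgf5* and *Fgf17*. *Fgf4*, whose product is best known from the limb bud and the early embryo, read 4.17, 4.42, 4.49, 4.48 and 4.13 at E11.5 and 3.03, 3.32, 3.28, 3.26 and 3.30 at E17.5. Both stages lay below the lower quartile of all signals, and the difference was -1.10 (SE 0.10, adjusted p = 9.4e-07). *Fgf5* had means of 5.93 ± 0.21 and 4.91 ± 0.27 (adjusted p = 4.1e-05), and *Fgf17* means of 5.32 ± 0.11 and 4.55 ± 0.17 (adjusted p = 2e-05). *Fgf2*, *Fgf6*, *Fgf8*, *Fgf16* and *Fgf20* did not pass, with differences from -0.27 for *Fgf20* to 0.05 for *Fgf8*. The endocrine FGFs, which act at a distance with Klotho coreceptors, did not pass either, with differences of -0.10 for *Fgf15*, -0.12 for *Fgf21* and -0.14 for *Fgf23*. These endocrine genes and *Fgf2*, *Fgf6* and *Fgf16* had means below the lower quartile of all signals at both stages, so a change could be missed.

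The 4 FGF homologous factors are not secreted and are known as partners of voltage-gated sodium channels. *Fgf11* fell from 6.60, 6.40, 6.33, 6.21 and 6.17 to 5.10, 4.94, 5.21, 4.87 and 5.53 (-1.21, SE 0.13, adjusted p = 4.7e-06). *Fgf13* read 6.89, 6.73, 6.51, 6.92 and 6.60 at E11.5 and 5.09, 5.96, 5.93, 7.13 and 5.80 at E17.5. It passed as lower (-0.75, adjusted p = 0.037) although E17.5 replicate 4 was the highest array of all, and the call was lost in 8 of the 10 fits that left out an array. *Fgf12* was the 1 member with several probe sets: the brighter differed by -0.53 (adjusted p = 0.1) and the dimmer, taken in its place, by -1.80 (adjusted p = 1.2e-06). *Fgf14*, with means below the lower quartile of all signals at both stages, did not pass (0.19, adjusted p = 0.21).

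Of the FGF receptor genes among the members, *Fgfr1*, *Fgfr3* and *Fgfr4*, *Fgfr3* changed the most. *Fgfr2* is not a member and was not examined. It read 8.70, 8.83, 8.79, 8.62 and 8.76 at E11.5 and 11.51, 11.54, 11.68, 11.81 and 11.66 at E17.5, a 7.48-fold rise (2.90, SE 0.08, adjusted p = 2.4e-11). *Fgfr4* went from 7.48, 7.53, 7.81, 7.60 and 7.45 to 7.98, 9.12, 8.86, 9.09 and 9.03, a 2.37-fold rise (adjusted p = 0.00012) in which E17.5 replicate 1 lagged behind the others. *Fgfr1*, whose product is abundant in mesenchyme, read 8.94, 9.30, 9.40, 9.31 and 9.37 at E11.5 and 8.37, 8.90, 8.50, 9.62 and 8.84 at E17.5. It did not pass (-0.42, adjusted p = 0.092). E17.5 replicate 4 was the highest array of all, and without it the difference was -0.61 (adjusted p = 0.0021). It also passed as lower after median centring (-0.55), after quantile normalization (-0.92) and with array weights (-0.48). Of the ligands, *Fgf9*, whose product binds the FGFR3 receptor well, was called in the same direction as *Fgfr3*. This was not particular to *Fgf9*, as 6 of the 15 locally acting FGF genes were higher and 3 lower. *Fgf1* (6.34) and *Fgf18* (2.99) rose more.

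Of the 4 VEGF ligand genes among the members 3 were higher at E17.5, and so were all 3 VEGF receptor genes, against 36.9% of all genes. *Vegfa*, the main driver of vessel growth, read 8.43, 8.93, 8.67, 8.65 and 8.71 at E11.5 and 12.26, 11.92, 11.94, 11.64 and 11.76 at E17.5. It was 9.35-fold higher (3.23, SE 0.13, adjusted p = 3.2e-10), with SDs of 0.18 and 0.23. *Vegfd*, a ligand of VEGF receptors 2 and 3 and a factor for lymphatic vessels, went from 4.47, 4.76, 4.37, 4.73 and 5.10 to 8.23, 9.72, 9.21, 8.66 and 8.76, an 18.7-fold rise (adjusted p = 1.2e-08). *Vegfc*, the other lymphatic factor, went from 7.05, 6.36, 6.51, 6.70 and 6.51 to 7.99, 9.30, 7.99, 7.91 and 9.17 (1.84, SE 0.29, adjusted p = 9.9e-05). Its E17.5 replicates 2 and 5 stood above the rest. *Vegfb* did not pass (-0.20, adjusted p = 0.29), but was lower after quantile normalization (-0.77, adjusted p = 0.00057).

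All 3 VEGF receptor genes, which are typical of endothelial cells, were higher. *Kdr*, the gene for VEGF receptor 2, read 6.51, 5.09, 5.95, 5.79 and 6.41 at E11.5 and 9.46, 10.98, 10.13, 8.99 and 11.02 at E17.5. The difference was 4.17 (SE 0.40, 18-fold, adjusted p = 1.4e-06). *Flt1*, the gene for VEGF receptor 1, which binds VEGFA tightly and limits its action, went from 5.17, 4.45, 5.09, 5.14 and 5.69 to 7.66, 9.37, 8.22, 7.63 and 9.63 (3.39, SE 0.40, adjusted p = 7.7e-06). *Flt4*, the receptor gene for VEGFC and VEGFD, went from 6.76, 6.07, 5.79, 6.54 and 6.87 to 8.70, 10.03, 9.49, 8.01 and 9.93 (2.83, SE 0.37, adjusted p = 2.2e-05). No array overlapped between stages, but the E17.5 arrays varied more than for most members, with SDs of 0.90 for *Kdr*, 0.94 for *Flt1* and 0.86 for *Flt4*.

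The spread of the VEGF receptors at E17.5 had the same order as that of endothelial markers. The mean of the 19 endothelial markers was 8.86, 10.19, 9.36, 8.59 and 10.47 on E17.5 replicates 1 to 5. Replicates 5 and 2 were the highest and replicate 4 the lowest, as for *Kdr* and *Flt1*, and *Flt4* differed only in that replicate 2 stood above replicate 5. Replicates 2 and 5 were also the highest for the mesenchymal, smooth muscle and mast cell means, but replicate 1 was the lowest there. *Pecam1*, a defining endothelial gene, rose by 5.27 (adjusted p = 1.3e-07). *Vegfa* had another order, with replicate 1 the highest and replicate 4 the lowest, and *Egfr* and *Erbb3* were also highest on replicate 1. The part of endothelial RNA in the receptor differences was not tested.

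**Figure D3:**
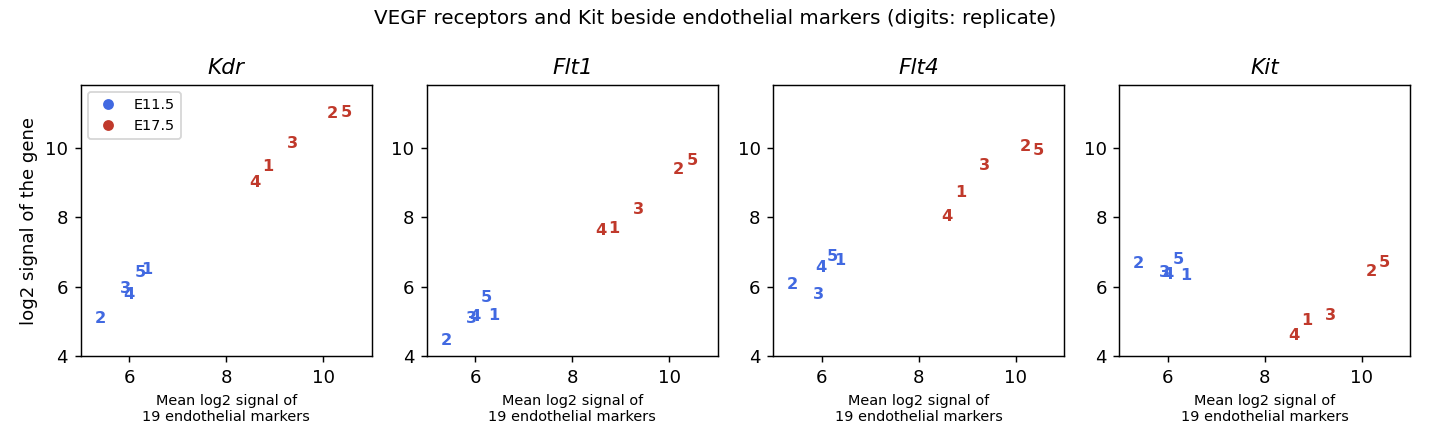
log2 signal of *Kdr*, *Flt1*, *Flt4* and *Kit* (vertical axes) against the mean log2 signal of 19 endothelial markers (horizontal axes), with a digit for each replicate, E11.5 in blue and E17.5 in red. At E17.5 replicates 2 and 5 lie at the top right and replicates 1 and 4 at the lower left in every panel.

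Promoter windows of the members were read from a RefSeq table of assembly GRCm38.p6, as the 250 bases before to 50 bases after a transcription start, and were found for 41 members with 53 windows in all. They were searched on both strands for TGANTCA, the AP-1 site bound by FOS and JUN, for TGACGTCA, the cAMP response element, and for ACGTG, the core of the hypoxia response element. The letters TGANTCA were found in the windows of 4 of the 41 members, against 8.97% of all 27025 genes with a window: *Met*, *Igf1*, *Fgf12* and *Fgf13*. TGACGTCA was found for 1 member, *Flt1*, against 2.03% of these genes. ACGTG was found for 7 members, *Vegfa*, *Fgf9*, *Fgfr4*, *Met*, *Egf*, *Fgf21* and *Fgf6*, against 21.8% of these genes. In *Met*, *Fgf21* and *Fgf6* it reads CACGTG, which holds the motif on both strands. A match is a description of letters and not of a bound site. The 120 bases before the start are shown for the receptors that changed most in each direction among those with a window and a match, *Flt1* and *Met*, and for *Kdr*, in whose window none of the motifs was found. They run 5′ to 3′ on the strand of the gene, and capitals mark a match to TGACGTCA or TGANTCA. *Flt1* lies at chr5:147726012-147726131 on the minus strand, *Kdr* at chr5:75978456-75978575 on the minus strand and *Met* at chr6:17463837-17463956 on the plus strand.
Flt1: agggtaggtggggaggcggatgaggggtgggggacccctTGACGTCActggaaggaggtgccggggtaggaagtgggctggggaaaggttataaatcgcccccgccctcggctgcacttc
Kdr: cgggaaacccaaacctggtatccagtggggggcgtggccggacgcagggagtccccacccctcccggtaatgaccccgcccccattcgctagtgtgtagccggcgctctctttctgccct
Met: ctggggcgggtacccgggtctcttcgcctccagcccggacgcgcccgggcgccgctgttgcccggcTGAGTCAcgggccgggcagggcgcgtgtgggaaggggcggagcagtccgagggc
The match in *Flt1* begins at -81 from the start, and that in *Met* at -54.

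PDGF ligands mostly fell, but *Pdgfb* rose. *Pdgfa*, the epithelial ligand of PDGF receptor alpha, read 11.48, 11.62, 11.53, 11.52 and 11.41 at E11.5 and 11.31, 11.01, 11.05, 11.18 and 11.17 at E17.5, a small drop with no overlap (-0.37, SE 0.08, adjusted p = 0.0019). *Pdgfc*, another ligand of that receptor, went from 12.63, 12.52, 12.67, 12.64 and 12.62 to 11.84, 11.69, 11.66, 11.92 and 11.65 (-0.86, SE 0.08, adjusted p = 1.2e-06). *Pdgfd* went from 4.98, 5.40, 5.19, 5.75 and 5.80 to 3.99, 4.68, 4.20, 3.97 and 4.89 (-1.08, SE 0.21, adjusted p = 0.00067). *Pdgfb*, which endothelial cells make to recruit pericytes, went from 5.20, 5.46, 5.80, 5.47 and 5.90 to 6.82, 7.09, 6.77, 6.21 and 7.58 (1.33, SE 0.22, adjusted p = 0.00019). On the E17.5 arrays it was highest on replicate 5, then 2, and lowest on replicate 4, as the endothelial markers were.

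Of the PDGF receptors, *Pdgfra* passed as lower. It read 7.41, 5.87, 6.58, 6.97 and 6.81 at E11.5 and 5.19, 6.17, 5.77, 4.63 and 5.81 at E17.5 (-1.21, SE 0.32, adjusted p = 0.0046), so that E17.5 replicate 2 stood above E11.5 replicate 2. *Pdgfrb*, the pericyte receptor, had means of 8.21 ± 0.44 and 8.89 ± 0.64 and did not pass (0.67, adjusted p = 0.063), but passed as higher without E17.5 replicate 1 (0.92, adjusted p = 0.0043) and with array weights (0.85, adjusted p = 0.02). *Pdgfrl*, a receptor-like gene without a kinase, did not pass (0.21, adjusted p = 0.23). Both receptors are typical of mesenchyme. The 17 mesenchymal markers had array means of 8.80, 7.87, 8.42, 8.77 and 8.33 at E11.5 and 8.70, 9.71, 9.24, 8.87 and 9.45 at E17.5, with 8 higher and 6 lower. *Pdgfra* was highest on replicate 1 and lowest on replicate 2 at E11.5 and highest on replicate 2 at E17.5, and so was the marker mean. At E17.5 *Pdgfra* was lowest on replicate 4 and the marker mean on replicate 1. The part of mesenchymal RNA in these values was not tested.

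HGF and its receptor moved in opposite directions. *Hgf*, which mesenchyme makes, rose from 4.15, 4.22, 4.04, 4.11 and 4.15 to 4.65, 4.82, 5.06, 4.79 and 5.06 (0.74, SE 0.10, adjusted p = 2.2e-05), a shift between values around the lower quartile of all signals. *Met*, the epithelial receptor, read 9.30, 9.76, 9.62, 9.94 and 10.14 at E11.5 and 9.02, 8.38, 7.64, 7.37 and 8.47 at E17.5. It was 2.98-fold lower (-1.58, SE 0.28, adjusted p = 0.00032), and the highest E17.5 array, at 9.02, lay close below the lowest E11.5 array, at 9.30.

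Kit ligand and *Kit* were called in opposite directions, but neither call was stable. *Kitl* read 8.68, 9.24, 8.86, 9.11 and 9.32 at E11.5 and 9.47, 10.27, 9.73, 8.81 and 9.83 at E17.5 (0.58, adjusted p = 0.045). The stages overlapped, and the difference was 0.04 (adjusted p = 0.89) after quantile normalization and 0.45 (adjusted p = 0.11) after median centring. *Kit*, known from mast cells, melanocytes and some endothelial cells, read 6.31, 6.66, 6.41, 6.34 and 6.79 at E11.5 and 5.02, 6.45, 5.17, 4.60 and 6.70 at E17.5 (-0.92, adjusted p = 0.041). At E17.5 replicates 2 and 5 were at the E11.5 level and the others were below it, in the same order as the endothelial markers. The mast cell mean was also highest on these 2 replicates, at 7.79 on both. At E11.5 *Kit* was lowest on replicate 1, where the endothelial mean was highest, at 6.37. With array weights the difference for *Kit* was -0.61 (adjusted p = 0.11). Each of these 2 calls was also lost in 8 of the 10 fits that left out an array.

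Insulin-like growth factor genes fell. *Igf1*, which mesenchyme and macrophages make, read 9.84, 8.32, 8.69, 10.12 and 8.69 at E11.5 and 6.93, 8.05, 7.12, 6.65 and 7.43 at E17.5. It was 3.73-fold lower (-1.90, SE 0.36, adjusted p = 0.00053), the largest drop among the members, and the E11.5 arrays had the largest SD of any member at that stage, 0.80. *Igf1* was high on E11.5 replicates 1 and 4, where the mesenchymal marker mean was also highest. At E17.5 the mesenchymal list had 8 genes higher and 6 lower, and the macrophage list 19 higher and 1 lower. The part of either cell type in the *Igf1* values was not tested. *Igf1r*, its receptor, went from 7.76, 7.98, 7.99, 7.99 and 8.15 to 6.83, 6.56, 6.80, 7.12 and 6.92 (-1.13, SE 0.11, adjusted p = 2e-06), with no overlap. *Insr*, the insulin receptor gene, did not pass (-0.12, adjusted p = 0.5). *Igf2*, the fetal ligand of both, which is not a member, was 20.7-fold lower (-4.37, adjusted p = 8.8e-12).

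Other genes of the pathway were set beside the members in 10 lists. Of the 158 genes measured, 82 were higher (51.9%) and 46 lower (29.1%), with a median difference of 0.50. Over all genes 36.9% were called higher and 31.5% lower, with a median of 0.03. Fewer pathway genes were higher after quantile normalization, with 69 higher and 52 lower, against 5676 higher and 6949 lower of all 17813 genes. The list medians then moved from 0.83 to 0.25 for the RAS-RAF-MEK-ERK cascade and from 0.69 to 0.11 for the ligand-releasing proteases. For the ERK-responsive transcription factors the median moved from 0.50 to 0.06, and over all genes from 0.03 to -0.04. Among 16 adaptors, which link receptors to RAS and PI3K, 9 were higher and 6 lower, led by *Nck2* (4.82), *Gab2* (2.56), *Gab1* (2.54) and *Crkl* (-2.37). Of 10 genes of the RAS-RAF-MEK-ERK cascade 7 were higher, with *Ksr1* at 2.02, *Nf1* at 1.51 and *Braf* at 1.47, and *Rasgrp1* (-1.99) and *Nras* (-1.45) were lower. After quantile normalization the cascade counted 5 higher and 3 lower. Of 12 genes for PI3K, AKT and phospholipase C, 7 were higher, led by *Plcg1* (4.69), *Akt1* (3.89), *Pik3cg* (2.04) and *Pik3ca* (1.33), and the regulatory subunit genes *Pik3r2* (-0.53) and *Pik3r3* (-0.61) were lower. After quantile normalization these counted 6 higher and 4 lower.

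Feedback inhibitors and the transcription factors downstream of ERK did not move as a block. Of 22 inhibitors 13 were higher and 7 lower. *Grb14* (4.25), *Errfi1* (3.83), whose product blocks the EGF receptor kinase, and *Sh2b3* (2.97) were higher, and *Grb10* (-3.52), which binds the insulin and IGF1 receptors, was lower. Of the FGF feedback genes, *Spry1* was higher (2.70, adjusted p = 9.7e-10) and *Spry2* lower (-2.79, adjusted p = 3.1e-08), *Spred2* was lower (-2.90) and the ERK phosphatase gene *Dusp6* higher (1.11), which were named after their values were seen. Of 9 ERK-responsive transcription factors, 5 were higher, *Ets2* (5.19), *Srf* (2.70), *Elk3* (1.36), *Myc* (0.53) and *Elk1* (0.50), and 3 were lower, *Elk4* (-3.12), *Etv4* (-1.87) and *Etv5* (-1.35). *Etv4* and *Etv5* are FGF targets of the lung tip. After quantile normalization *Myc* and *Elk1* no longer passed, which left 3 higher and 3 lower.

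Genes that carry, present or release the ligands also changed. Among 29 coreceptors and heparan sulphate genes 9 were higher and 13 lower, and the median difference was -0.12. *Cd44* (4.74), the VEGF coreceptor gene *Nrp1* (3.43) and *Sdc4* (2.84) were higher, and *Sulf2* (-3.96), which trims heparan sulphate outside the cell, was lower. Of the proteases and their partners that release membrane-bound ligands 8 of 10 were higher and 1 lower, or 4 and 1 after quantile normalization. *Adam10* (3.42), *Rhbdf2* (2.31) and *Bace1* (1.44) were higher and *Adam17* (-2.18), the main sheddase of several EGF family ligands, was lower. Among IGF carriers and the clearance receptor, *Igfbp6* (6.35), *Igfbp7* (4.33), *Igf2r* (2.85) and *Igfals* (0.57) were higher and *Igfbp4* (-2.30), *Igfbp5* (-1.59) and *Igfbp2* (-1.58) lower.

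Of 22 other receptor tyrosine kinase genes 11 were higher, led by *Tie1* (4.60), *Tek* (4.44), *Csf1r* (4.22) and *Ros1* (4.21), and 5 were lower, *Ret* (-2.18), *Ddr2* (-1.40), *Ror1* (-1.17), *Tyro3* (-0.57) and *Ntrk2* (-0.26). *Tie1* and *Tek* are also on the endothelial list and *Csf1r* is on the macrophage list. Of 19 other ligand genes 9 were higher, with *Gas6* (4.74), *Il34* (2.27) and *Pros1* (1.71) leading, and 4 were lower, *Igf2* (-4.37), *Pgf* (-1.56), *Angpt1* (-0.99) and *Bdnf* (-0.34). *Gas6* and *Pros1* encode ligands of AXL, MERTK and TYRO3, and *Il34* a ligand of the CSF1 receptor.

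**Figure D4:**
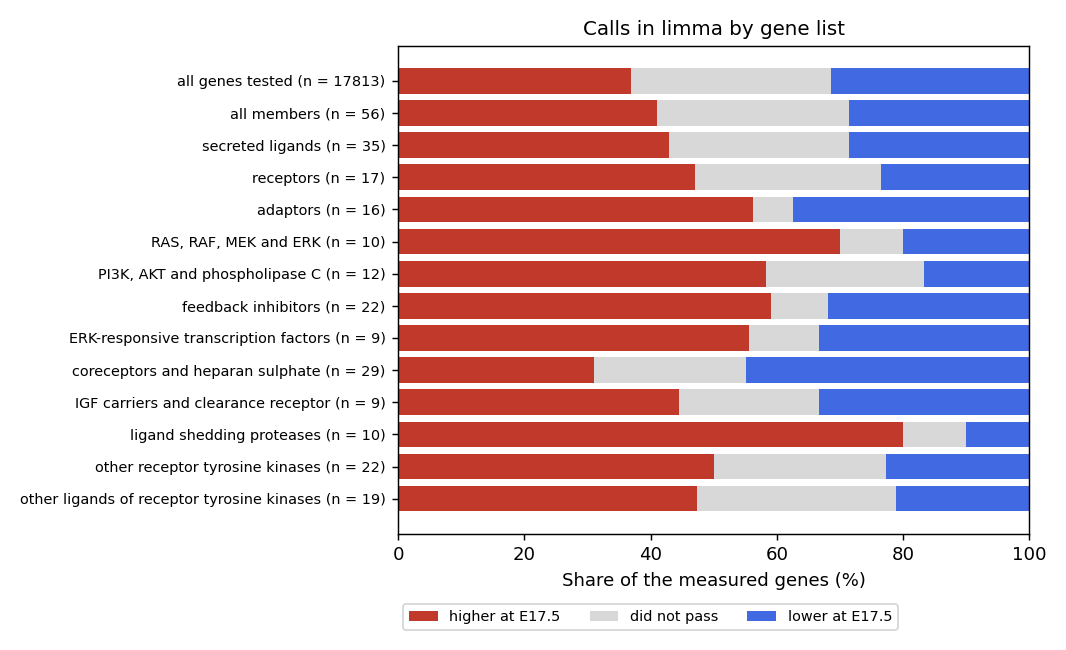
Share of the measured genes of each list (horizontal axis, in percent) called higher at E17.5 (red), not called (grey) or lower (blue), with the number of genes in brackets. All genes tested stand at 36.9% higher and 31.5% lower, the members at 41.1% and 28.6%, and the coreceptor list is the pathway list in which lower calls outnumber higher calls.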

How the data were processed

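The authors extracted total RNA, amplified and labelled it with NuGEN kits, hybridised it to Affymetrix arrays and used Bioconductor in R for the analysis. They deposited log2 signals for 21204 probe sets. The scale was read from the values, which run from 2.472 to 15.03. The method behind them (background correction, normalization, probe set choice), not given in the sources used here, could change the differences. The upper quartile of the signals was 9.42 to 9.46 on the E11.5 arrays and 10.00 to 10.04 on the E17.5 arrays. The lower quartiles were alike, at 4.56 to 4.70 and 4.56 to 4.66. Bright probe sets thus tended to read higher at E17.5, and quantile normalization removes this offset. The number of arrays limits the precision.

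Gene names came from the platform annotation, and probe sets with several genes (514) or none listed (2709) were left out. Of the 17813 genes, 167 had several probe sets. Stages were compared on the deposited values in R 4.3.3 with limma 3.58.1 (lmFit, eBayes) and Benjamini-Hochberg adjustment over all genes, after the code had been tested on simulated data. A call needs an adjusted p under 0.05. No filter on dim genes was applied. Figures used Python 3.11.15 with matplotlib 3.10.9.

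Members and lists were chosen with earlier results of these data known. Values on each array are given for the 4 called members of each role with the largest difference and for the genes of chosen ligand-receptor pairs, and up to 4 genes of each pathway list are named, or all called one way where they are 5 or fewer. In the feedback list, 4 more were named after their values were seen. Alternatives were other scalings, probe set choices, a block for the replicate number, a filter on dim genes, other limma settings and leaving out each array. Replicate numbers did not pair arrays of the stages.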

Additional observations from a re-analysis of the deposited data

Results flagged for a closer look

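In each of the 112 groups of 5 arrays (56 members at 2 stages), the array at either end was checked for a gap to its neighbour above 0.71 of the range of the group. Chance alone gives about 5.6 such groups, and 8 were found. *Fgfr4* read 7.98 on E17.5 replicate 1, with the nearest other array at 8.86. *Hbegf* read 11.88 on the same array, above 11.39 on the next, and *Fgf4* read 3.03 there, below 3.26. On E11.5 replicate 1, *Fgfr1* read 8.94, below 9.30, and *Insr* read 6.68, below 6.88. On E11.5 replicate 2, *Fgf17* read 5.51, above 5.30, and *Pdgfc* read 12.52, below 12.62. *Fgf21* read 3.92 on E17.5 replicate 3, below 4.20.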

How the results depend on the processing

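Of the 39 called members, 35 kept direction and call in each of the 18 alternatives that tested them, and of the 17 others, 10 stayed uncalled, 6 of them with a change of sign. Only 21 members were tested in every alternative, since 47 remained without probe sets of suffix _x, _s or _a and 24 without dim genes. Members called higher and lower numbered 21 and 18 after quantile normalization, 21 and 21 after median centring, 24 and 16 with array weights, and 22 to 23 and 14 to 16 when each array was left out. Members at least 2-fold higher and lower then numbered 17 to 18 and 8 to 10, and pathway genes 81 to 84 higher and 44 to 46 lower. After quantile normalization 69 pathway genes were higher and 52 lower, and after median centring 81 and 51. Dim genes in this filter were those with a mean signal below the median over all probe sets, a stricter cut than the lower quartile. Of the 24 members left, 15 were higher, 5 lower and 3 at least 2-fold lower, against 23, 16 and 9 of 56 without the filter. Most of the lower calls were thus on members below that median. Of the 106 pathway genes left, 28 were lower. Over all 9705 genes left, 4739 were higher and 3404 lower. *Erbb2* reversed to -0.21 after quantile normalization. *Kitl* lost its call in 8 fits without an array (0.42 to 0.63), *Kit* in 8 (-0.96 to -0.67) and *Fgf13* in 8 (-0.78 to -0.53). *Fgf20* passed after median centring (-0.40) and without E11.5 replicate 2 (-0.38), *Fgf12* after median centring (-0.66) and without E17.5 replicate 2 (-0.78), and *Fgf15* (-0.23) and *Erbb4* (-0.30) after median centring. Same-numbered arrays did not deviate together (correlations of -0.29 to 0.07). With the replicate number as a block, 23 members were higher and 17 lower, and *Fgf12* passed (adjusted p = 0.013). For the 9 members below the lower quartile of all signals at both stages, the signal limits what can be seen, and for members dim at 1 stage, such as *Ereg*, it limits the fold.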
